A study of Mus musculus with 9 samples.

Results

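The p53 network was described in cultured mouse neural stem cells and in 2 tumour lines made from them, through 30 genes: Trp53 itself, its regulators Mdm2 and Mdm4, and 27 genes listed as p53 targets. Members were chosen by name, as the rows of the deposited count table that carry these 30 symbols, out of 47729 genes in all. All 30 were in the table, and all 30 passed the filter on low counts, which kept 15696 genes. The 9 libraries fall into 3 groups of 3. The LTR group (LTR 1, 2 and 3) holds tumour cells of the genotype lgT/Ras, an abbreviation that the labels do not spell out. The NF1 group (NF1 1, 2 and 3) holds tumour cells with Nf1-/-, CDK4 and shp53, by its name a short hairpin RNA against p53. The NSC group (NSC 1, 3 and 5) holds wild-type primary neural stem cells. All cells trace to the subventricular zone, a stem cell niche that lines the lateral ventricles of the brain, and all were grown in the same stem cell culture for at most 10 passages. The sources used here do not give the promoters of the introduced genes, the number of clones behind a line or the age of the animals. The series states that the 3 cultures of a cell type were independent. The labels tell them apart only by number, so p-values measure the spread between these cultures, which may be technical.

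Total counts ran from 28600479 in LTR 2 to 57231024 in NSC 3, and a floor of 3 counts lay between 0.0541 and 0.114 CPM (counts scaled by library size and, by TMM, for composition), for counting error only. The summed level of 12 neural stem cell markers was 6820 to 12700 CPM in LTR and 11200 to 13500 CPM in the libraries labelled NF1, against 13600 to 14400 CPM in NSC. The sequencing lane in the column headers was shared by all tumour libraries and was another for all NSC libraries, so lane and cell type cannot be told apart. The library NF1 2 stood apart from its group: on the first principal component, which held 70.3% of the variance, it lay at -24.1, against 91.9 and 117 for NF1 1 and NF1 3, 89.8 to 99.3 for LTR and -160.5 to -146.3 for NSC. Results on the NF1 group are therefore given with and without it. Both comparisons with NSC use the same 3 NSC libraries. In such bulk libraries, fewer cells of a kind and less RNA per cell cannot be told apart. Of the other genes that the labels name, Cdk4 measured 795, 393 and 1124 CPM in NF1 1, 2 and 3, against 334, 456 and 325 CPM in NSC 1, 3 and 5. Nf1 measured 59.0, 97.2 and 40.1 CPM, against 110, 82.5 and 114 CPM. LTR 1, 2 and 3, whose label names neither gene, gave 1015, 935 and 1020 CPM of Cdk4 and 80.0, 40.3 and 58.0 CPM of Nf1. NF1 2 lay inside the NSC range for both genes. By the edgeR test on 9 libraries, Cdk4 rose in LTR (adjusted p = 0.0135). Neither NF1 difference from NSC passed with NF1 2 in the fit (0.053 for Cdk4 and 0.205 for Nf1). Without NF1 2, the mean of NF1 1 and NF1 3 was 959 CPM for Cdk4 and 49.6 CPM for Nf1, and no test without it is given for these genes. These levels therefore do not tell the NF1 line from LTR.

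p53 is a transcription factor that is kept scarce in unstressed cells because Mdm2, a ubiquitin ligase, marks it for destruction, while Mdm4, a relative of Mdm2, binds and restrains it. DNA damage and oncogene signals free p53 from this control, and it then raises genes that stop the cell cycle, start apoptosis, change metabolism or aid repair. Mdm2 is itself a p53 target, which closes a feedback loop. In the adult brain, p53 is known to limit the self-renewal of neural stem cells, and its pathway is often disabled in glioma.

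p53 binds DNA as a tetramer, at pairs of a 10-base half-site. RefSeq promoter windows (GRCm38.p6) were found for 24 of the 30 genes, the exceptions being Rrm2b, Tnfrsf10b, Perp, Pmaip1, Trp53inp1 and Zmat3. At least 1 match to the p53 half-site consensus, which reads the same on both strands, lay within 250 bases before to 50 bases after a start site in 10 of the 24 genes (41.7%), against 9.55% of all 27025 genes in the table. Only exact matches were counted, with no mismatch allowed. A pair of exact matches 0 to 13 bases apart was found in the window of 1 member, Cdkn1a, and in 24 of 32851 windows in all. The 250 bases before the start are printed for 5 genes with a match: Trp53, its regulator Mdm2 and 3 targets. Each exact match is in capitals, and letters run 5′ to 3′ on the gene's own strand. They show where exact matches lie, and that of these 5 only Cdkn1a has a pair of them. Half-sites with a mismatch stay in lower case. The 10 bases just before the Ccng1 match, and those just after GAACATGTCT in Cdkn1a, depart from the consensus in 1 letter. The windows of Fas, Gdf15 and Ephx1, whose levels differed most between LTR and NSC, held no match to these letters. The Cdkn1a window belongs to the upstream start of the 2 in the table, and the downstream window held no match.

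Cdkn1a, chr17:29090729-29090978, plus strand: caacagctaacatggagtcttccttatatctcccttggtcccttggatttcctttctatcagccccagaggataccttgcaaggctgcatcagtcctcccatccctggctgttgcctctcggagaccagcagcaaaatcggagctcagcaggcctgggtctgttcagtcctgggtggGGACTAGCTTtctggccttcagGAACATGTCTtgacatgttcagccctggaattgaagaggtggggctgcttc
Ccng1, chr11:40755287-40755536, minus strand: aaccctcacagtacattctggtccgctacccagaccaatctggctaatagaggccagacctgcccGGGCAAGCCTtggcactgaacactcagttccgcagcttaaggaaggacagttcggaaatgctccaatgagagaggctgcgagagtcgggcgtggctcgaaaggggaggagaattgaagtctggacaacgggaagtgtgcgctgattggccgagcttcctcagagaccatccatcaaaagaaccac
Mdm2, chr10:117710759-117711008, minus strand: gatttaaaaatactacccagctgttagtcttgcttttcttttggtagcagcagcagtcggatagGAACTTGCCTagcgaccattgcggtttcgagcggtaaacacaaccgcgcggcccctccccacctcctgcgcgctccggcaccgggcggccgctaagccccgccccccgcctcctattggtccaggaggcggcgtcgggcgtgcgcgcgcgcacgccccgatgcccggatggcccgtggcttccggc
Bax, chr7:45466899-45467148, minus strand: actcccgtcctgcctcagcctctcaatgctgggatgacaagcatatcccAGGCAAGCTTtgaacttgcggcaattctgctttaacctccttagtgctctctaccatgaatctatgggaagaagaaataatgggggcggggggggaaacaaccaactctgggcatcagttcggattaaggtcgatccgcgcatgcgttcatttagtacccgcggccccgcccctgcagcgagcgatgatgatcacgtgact
Trp53, chr11:69580109-69580358, plus strand: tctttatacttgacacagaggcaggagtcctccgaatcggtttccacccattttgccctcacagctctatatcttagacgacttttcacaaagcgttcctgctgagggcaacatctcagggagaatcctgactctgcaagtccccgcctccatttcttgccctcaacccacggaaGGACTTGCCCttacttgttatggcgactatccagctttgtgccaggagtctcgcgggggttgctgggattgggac

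Counted from the start site, the capitals begin at -73 and -51 in Cdkn1a, -185 in Ccng1, -186 in Mdm2, -201 in Bax and -75 in Trp53. Other members with a match were Ei24 (GGGCATGCCC at -10), Aen (GGGCTTGTCC), Polk (GAACTAGCCT at -231), Sesn1 (AAGCTTGTTT at -173) and Abhd4 (GGGCTTGTTT at 2). These matches are descriptions of the letters, and binding was not measured.

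In LTR, most p53 targets were lower than in NSC while Trp53 mRNA was higher. By the edgeR quasi-likelihood test with Benjamini-Hochberg adjustment over all genes, 17 of the 30 members fell and 1, Trp53, rose (adjusted p under 0.05). Of all genes tested, 20.9% fell and 14.9% rose. The median log2 fold change was -1.28 over the members and -0.06 over all genes. For 20 members, all 3 LTR libraries lay below all NSC libraries, against 32% of all genes. For 1 member they all lay above, against 26.9%. The count that fell varied when single libraries were left out: 11 members fell without LTR 2 and 9 without LTR 3. The share of all genes that fell moves in such fits as well, to 17.7% without NSC 3, where 16 members fell. A lower count is therefore not a trait of the members alone.

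In the libraries labelled NF1, 9 members fell and 1, again Trp53, rose, where 13.1% of all genes fell and 10.1% rose. The median log2 fold change was -0.90 over the members and 0 over all genes. All 3 libraries lay below NSC for 16 members, against 23.7% of all genes, and above NSC for 3, against 18.7%. These counts depended on 1 library in both directions. Without NF1 2, 20 members fell, where 24.5% of all genes fell, while 3 fell without NF1 1, and 5 without NSC 1 or NSC 5. Without NSC 3, 6 members fell, where 11.6% of all genes fell. The shares without NF1 1, NSC 1 or NSC 5 are not given here, so the counts of 3 and 5 cannot be set beside all genes. The 9 members that fell in both comparisons were Cdkn1a, Zmat3 and Gdf15 of the cell cycle and growth genes, Fas and Ei24 of the cell death genes, and Sesn1, Dcxr, Abhd4 and Sulf2 of the metabolism and repair genes. As a share of all genes tested, 11.7% fell in both, with the NSC libraries shared.

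Trp53 and its 2 Mdm regulators did not fall. Trp53 (ENSMUSG00000059552, GRCm38 chromosome 11, 69580359 to 69591873) measured 223, 281 and 255 CPM in LTR 1, 2 and 3, and 217, 151 and 221 CPM in NF1 1, 2 and 3, against 107, 114 and 101 CPM in NSC 1, 3 and 5. All 6 tumour libraries lay above the NSC libraries, and NF1 2 was the lowest of the 6. The level was 2.35-fold higher in LTR (log2 fold change 1.23 ± 0.20 SE, adjusted p = 0.00258) and 1.83-fold higher in the libraries labelled NF1 (0.87 ± 0.20, adjusted p = 0.0141). The Trp53 transcript, which the shp53 label names as its target, was thus not below its wild-type level, and the group is called by its label for that reason. That second call did not hold when NSC 1, NSC 5, NF1 1 or NF1 3 was left out (adjusted p = 0.0599, 0.0635, 0.0573 and 0.0577 in that order), nor with the replicate number as a block (0.0947), and its range over the alternatives was 0.0015 to 0.0947. The pseudogene Trp53-ps held 6 counts over all 9 libraries.

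Mdm2, the ubiquitin ligase, measured 196, 111 and 196 CPM in LTR 1, 2 and 3, and 182, 206 and 161 CPM in NF1 1, 2 and 3, against 113, 132 and 126 CPM in NSC 1, 3 and 5. LTR 2 lay below every NSC library and the other 5 tumour libraries lay above them. Neither difference passed (LTR 0.44 ± 0.24, adjusted p = 0.17; NF1 0.57 ± 0.24, adjusted p = 0.109). Without LTR 2 both did, with 0.78 for LTR (adjusted p = 0.0164, range over alternatives 0.0164 to 0.382) and an adjusted p of 0.0204 for the libraries labelled NF1 (range 0.0204 to 0.279), where the fit of 6 libraries gave 0.0429. Mdm4, which binds p53 and restrains its activity, measured 74.3, 43.0 and 71.4 CPM in LTR and 56.5, 81.2 and 56.3 CPM in NF1 1, 2 and 3, against 87.1, 52.5 and 78.6 CPM in NSC. The ranges overlapped, and neither difference passed (LTR -0.21 ± 0.28, adjusted p = 0.581; NF1 -0.17 ± 0.28, adjusted p = 0.687). Without LTR 2 the Mdm4 difference in LTR turned to 0.12 (adjusted p = 0.73, range 0.284 to 0.905).

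**Figure D1:**
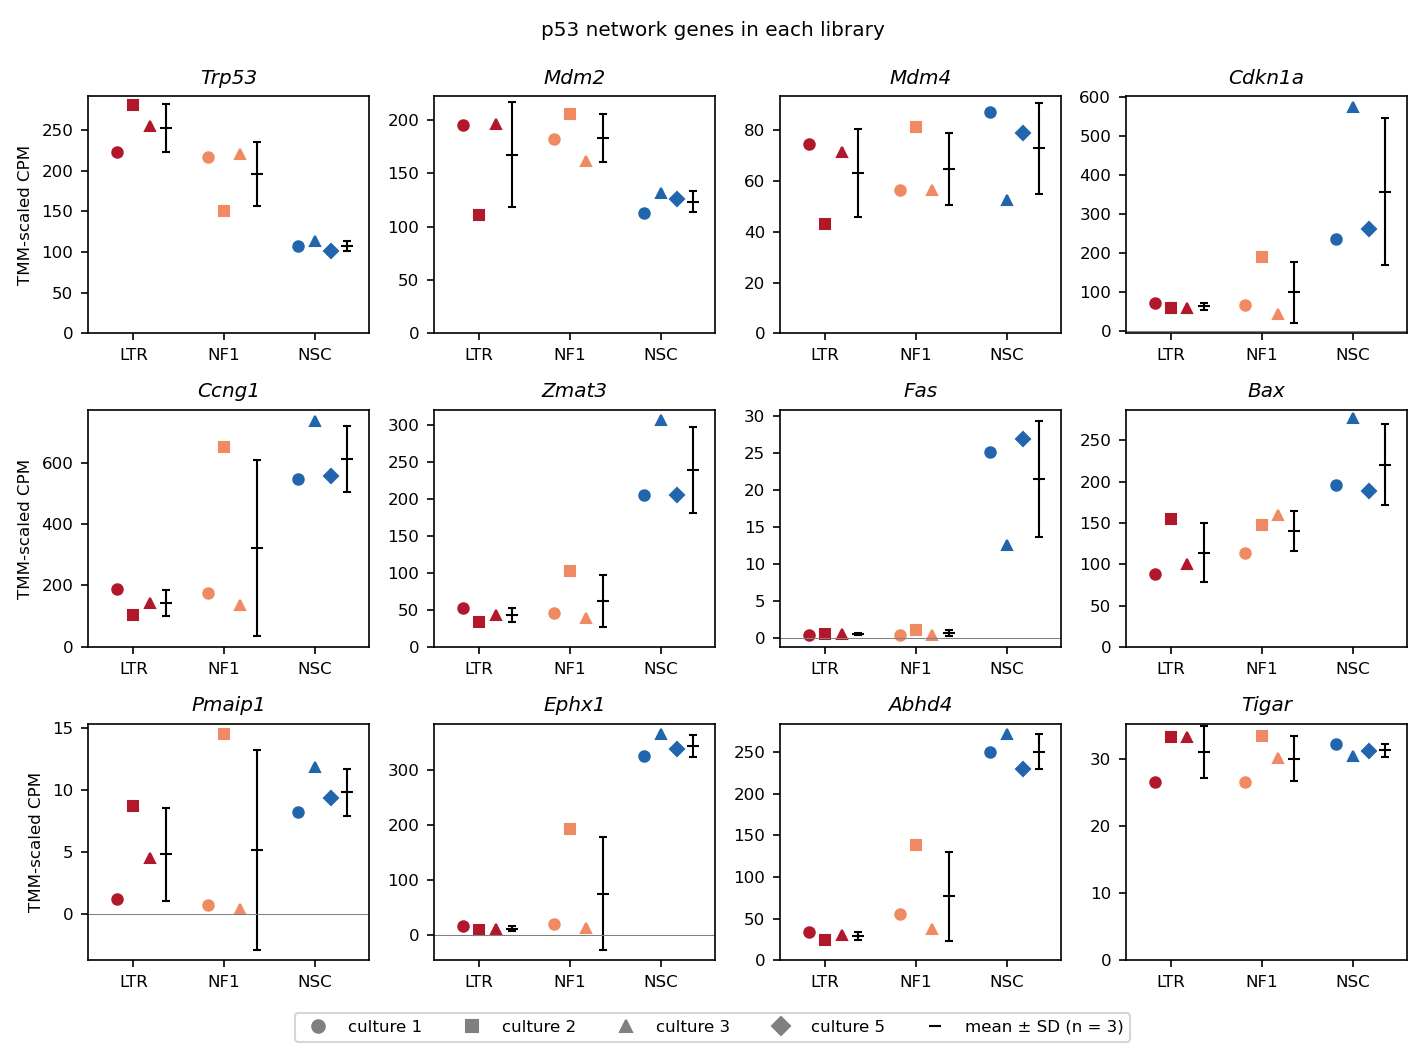
TMM-scaled CPM of 12 p53 network genes in each of the 9 libraries; each panel has its own linear axis, symbols mark the culture number, colours the group, and bars the mean ± SD over 3 cultures. Trp53 lies higher in all 6 tumour libraries than in NSC, while Cdkn1a, Fas, Zmat3, Ephx1 and Abhd4 lie lower in all 6, and in Ccng1 and Pmaip1 the library NF1 2 (square) lies inside or above the NSC range.

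Of the 7 cell cycle and growth genes, 6 fell in LTR and 3 fell in the libraries labelled NF1, with a median log2 fold change of -2.09 in LTR and -0.93 in NF1. Cdkn1a (ENSMUSG00000023067, chromosome 17, 29090976 to 29100727), which encodes the cyclin-dependent kinase inhibitor p21, measured 72.0, 58.4 and 57.0 CPM in LTR 1, 2 and 3 and 65.8, 189 and 42.6 CPM in NF1 1, 2 and 3, against 237, 574 and 262 CPM in NSC 1, 3 and 5. All tumour libraries lay below NSC, NF1 2 came closest, and NSC 3 was more than the other NSC libraries together. The gene was 5.72-fold lower in LTR (-2.52 ± 0.56, adjusted p = 0.00908) and 3.61-fold lower in the libraries labelled NF1 (-1.85 ± 0.54, adjusted p = 0.0372). The NF1 call was lost without NSC 1 (0.0549), NSC 3 (0.0958), NSC 5 (0.061), LTR 1 (0.0532), LTR 3 (0.0525), NF1 1 (0.122) or NF1 3 (0.077), and in the fit of 6 libraries (0.0798). Alternatives gave adjusted p-values from 0.000329 to 0.122. With the replicate number as a block the NF1 difference was -2.52 with an adjusted p of 0.0518. Exons of Cdkn1a share 273 bases with a gene on the opposite strand, and the sources used here do not say whether counting used strand.

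Ccng1 encodes cyclin G1, a partner of protein phosphatase 2A and of Mdm2. It measured 188, 104 and 142 CPM in LTR and 176, 651 and 136 CPM in NF1 1, 2 and 3, against 546, 736 and 557 CPM in NSC. NF1 2 lay within the NSC range and the other 5 tumour libraries far below it. Ccng1 fell in LTR (-2.09 ± 0.55, adjusted p = 0.0175), a call lost without LTR 2 (0.0637) or LTR 3 (0.0578; range over alternatives 0.000278 to 0.0637). In the libraries labelled NF1 it did not pass (-0.93 ± 0.53, adjusted p = 0.225), and without NF1 2 it did (-1.96, adjusted p = 0.00107, range 0.00107 to 0.481).

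Zmat3, a zinc finger RNA-binding protein, was 5.56-fold lower in LTR (42.9 ± 9.2 CPM against 238.9 ± 58.4 CPM in NSC, SD, n = 3 each). The log2 fold change was -2.48 ± 0.39 in LTR (adjusted p = 0.00238) and -1.94 ± 0.38 in the libraries labelled NF1 (adjusted p = 0.008), where NF1 1, 2 and 3 measured 45.3, 103 and 38.8 CPM. Both calls held in every alternative run. Gdf15, a secreted factor of the TGF-beta family, had 3, 3 and 0 counts in LTR 1, 2 and 3, and 0, 11 and 0 counts in NF1 1, 2 and 3, against 119, 878 and 127 counts in NSC 1, 3 and 5. It fell in LTR (-6.76 ± 1.51, adjusted p = 0.00945) and in the libraries labelled NF1 (-5.96 ± 1.42, adjusted p = 0.0174), and with so few tumour counts the fitted fold depends on the prior count. The NF1 call on Gdf15 was lost without NF1 1 (0.0519, range 3.28e-05 to 0.0519).

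Btg2, an antiproliferative adaptor of the mRNA deadenylase complex, measured 32.9, 28.2 and 25.0 CPM in LTR and 24.6, 71.0 and 25.1 CPM in NF1 1, 2 and 3, against 84.3, 74.0 and 65.0 CPM in NSC. The fall passed in LTR (-1.37 ± 0.39, adjusted p = 0.024) but not in the libraries labelled NF1 (-0.89 ± 0.39, adjusted p = 0.125). The LTR call was lost without NSC 1 (0.0739), LTR 2 (0.0697) or LTR 3 (0.0849; range 0.000371 to 0.0849). Phlda3, a pleckstrin homology protein that restrains the kinase Akt, measured 33.1, 35.6 and 27.1 CPM in LTR and 34.0, 99.1 and 34.2 CPM in NF1 1, 2 and 3, against 82.2, 122 and 97.1 CPM in NSC. Phlda3 fell in LTR (-1.65 ± 0.41, adjusted p = 0.0138; lost without LTR 3, 0.0549, range 0.00024 to 0.0549) and gave -0.85 ± 0.40 in NF1 (adjusted p = 0.149). For both genes NF1 2 lay inside the NSC range, and without it both passed in the NF1 comparison, Btg2 with an adjusted p of 0.000561 (range 0.000561 to 0.318) and Phlda3 with 0.000924 (range 0.000924 to 0.365). The exception in LTR was Plk2, the polo-like kinase of early cell cycle, at 87.0, 72.8 and 103 CPM in LTR and 44.2, 73.4 and 22.2 CPM in NF1 1, 2 and 3, against 86.2, 82.2 and 70.3 CPM in NSC (LTR 0.14 ± 0.36, adjusted p = 0.784; NF1 -0.77 ± 0.37, adjusted p = 0.151). Plk2 in LTR was -0.05 with the replicate number as a block, and in the NF1 comparison it passed without NF1 2 (adjusted p = 0.009, range 0.009 to 0.30).

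Of the 11 cell death genes, 6 fell in LTR and 2 in the libraries labelled NF1, with medians of -1.19 and -0.92. Fas (ENSMUSG00000024778, chromosome 19, 34290666 to 34327772), the death receptor of the TNF receptor family, measured 0.356, 0.572 and 0.508 CPM in LTR and 0.377, 1.09 and 0.410 CPM in NF1 1, 2 and 3, against 25.1, 12.5 and 26.9 CPM in NSC 1, 3 and 5. It was the only member besides Gdf15 near 0 in every tumour library, NF1 2 included. Fas was 44.8-fold lower in LTR (-5.48 ± 0.57, adjusted p = 0.000718) and 34.3-fold lower in the libraries labelled NF1 (-5.10 ± 0.56, adjusted p = 0.00107), and both calls held in every alternative run.

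Bax, the pore-forming protein of the outer mitochondrial membrane, measured 88.1, 154 and 100 CPM in LTR and 114, 148 and 160 CPM in NF1 1, 2 and 3, against 196, 277 and 188 CPM in NSC. Every tumour library lay below every NSC library. It fell in LTR (-0.95 ± 0.26, adjusted p = 0.0218), a call lost without NSC 3 (0.112), LTR 1 (0.076) or LTR 3 (0.123; range 0.00889 to 0.123), and gave -0.65 ± 0.26 in NF1 (adjusted p = 0.102, and 0.0486 with scaling by library totals). Ei24, a membrane protein of the endoplasmic reticulum, measured 105, 130 and 110 CPM in LTR and 123, 129 and 131 CPM in NF1 1, 2 and 3, against 177, 271 and 189 CPM in NSC. The 3 libraries labelled NF1 lay within a narrow band, NF1 2 between the others. Ei24 fell in LTR (-0.89 ± 0.20, adjusted p = 0.00991) and in NF1 (-0.73 ± 0.20, adjusted p = 0.029). The LTR call on Ei24 was lost without NSC 3 (0.0528) or LTR 3 (0.0706; range 0.00105 to 0.0706). Its NF1 call was lost without NSC 3 (0.133), NSC 5 (0.0588), LTR 2 (0.0508), LTR 3 (0.0797), NF1 1 (0.102) or NF1 3 (0.0669; range 0.00731 to 0.133). It was also lost with no filter (0.0503), in the fit of 6 libraries (0.0859), with the replicate block (0.0781) and with NF1 2 and NSC 3 both left out (0.0604).

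Trp53inp1, a nuclear protein that links p53 to apoptosis and autophagy, measured 37.5, 17.8 and 33.1 CPM in LTR and 32.1, 141 and 20.6 CPM in NF1 1, 2 and 3, against 182, 196 and 175 CPM in NSC. Trp53inp1 fell in LTR (-2.64 ± 0.65, adjusted p = 0.0136; lost without LTR 2, 0.0502, range 9.88e-05 to 0.0502). Eda2r, the receptor of ectodysplasin A2, measured 11.4, 9.19 and 11.3 CPM in LTR and 10.1, 42.6 and 4.78 CPM in NF1 1, 2 and 3, against 58.1, 73.8 and 56.1 CPM in NSC. Aen, a nuclease of apoptotic cells, measured 38.7, 40.1 and 60.3 CPM in LTR and 55.0, 86.0 and 39.9 CPM in NF1 1, 2 and 3, against 91.3, 122 and 105 CPM in NSC. In all 3 genes the tumour libraries lay below NSC and NF1 2 was the tumour library closest to it. Eda2r fell in LTR (-2.56 ± 0.66, adjusted p = 0.0168; lost without LTR 2, 0.0583, or LTR 3, 0.0527, range 0.000129 to 0.0583). Aen also fell there (-1.19 ± 0.30, adjusted p = 0.0151; lost without LTR 1, 0.0546, or LTR 2, 0.0591, range 0.00133 to 0.0591, and at 0.0509 with the replicate block). In the NF1 comparison by edgeR the 3 genes gave -1.52 ± 0.62 for Trp53inp1 (adjusted p = 0.106), -1.71 ± 0.64 for Eda2r (0.0833) and -0.81 ± 0.30 for Aen (0.0773). With all libraries in, the same 3 passed there by DESeq2 (adjusted p = 0.0344 for Trp53inp1, 0.0194 for Eda2r and 0.0337 for Aen) and by limma-voom (0.0271, 0.014 and 0.0488). Without NF1 2 all 3 passed by edgeR, with adjusted p-values of 0.000428 for Trp53inp1 (range 0.000428 to 0.266), 0.000285 for Eda2r (range 0.000285 to 0.219) and 0.00749 for Aen (range 0.00749 to 0.199).

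By edgeR on all 9 libraries, the other 5 cell death genes did not pass in either comparison. Pmaip1, which encodes the BH3-only protein Noxa, measured 1.22, 8.70 and 4.57 CPM in LTR and 0.696, 14.5 and 0.375 CPM in NF1 1, 2 and 3, against 8.23, 11.9 and 9.36 CPM in NSC. NF1 2 was the highest of all 9 libraries, and NF1 1 and NF1 3 were the lowest. With NF1 2 left out it gave -4.17 in NF1 (adjusted p = 0.00334, range 0.00334 to 0.845). Tnfrsf10b, the receptor of TRAIL, measured 6.11, 11.9 and 8.12 CPM in LTR and 1.83, 21.1 and 0.956 CPM in NF1 1, 2 and 3, against 39.9, 60.5 and 48.5 CPM in NSC. It lay below NSC in all 6 tumour libraries, and by edgeR neither difference passed (LTR -2.51 ± 0.95, adjusted p = 0.065; NF1 -2.64 ± 0.96, adjusted p = 0.074). Both passed by DESeq2 (adjusted p = 0.0112 in LTR and 0.00763 in NF1) and by limma-voom (0.0126 and 0.00561), with no filter (0.0254 and 0.028) and with the replicate block (0.0248 and 0.0258). Without NF1 2 both passed by edgeR, with adjusted p-values of 0.000369 in LTR (range 0.000369 to 0.16) and 8.23e-05 in NF1 (range 8.23e-05 to 0.171). Bbc3, which encodes the BH3-only protein Puma, gave 7.26 ± 2.41 CPM in LTR and 8.45 ± 3.00 CPM in NF1, against 13.99 ± 2.68 CPM in NSC, and log2 fold changes of -0.95 (adjusted p = 0.0722) and -0.73 (adjusted p = 0.178). Its LTR difference passed by DESeq2 (adjusted p = 0.0343), in the fit of 6 libraries (0.0452) and without NF1 2 (0.0393; range 0.0343 to 0.271). Perp, a membrane protein of apoptosis and cell junctions, gave log2 fold changes of -1.44 in LTR (adjusted p = 0.256) and -2.30 in NF1 (adjusted p = 0.117), and Pidd1, a scaffold that activates caspase-2, gave -0.75 (adjusted p = 0.0836) and -0.63 (adjusted p = 0.165). Perp passed in NF1 by DESeq2 (adjusted p = 0.0378, range 0.035 to 0.292). The Pidd1 difference in LTR passed without NSC 3 (adjusted p = 0.0399, range 0.0153 to 0.339), and its NF1 difference with NSC 3 and NF1 2 both left out (0.025, range 0.025 to 0.51).

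**Figure D2:**
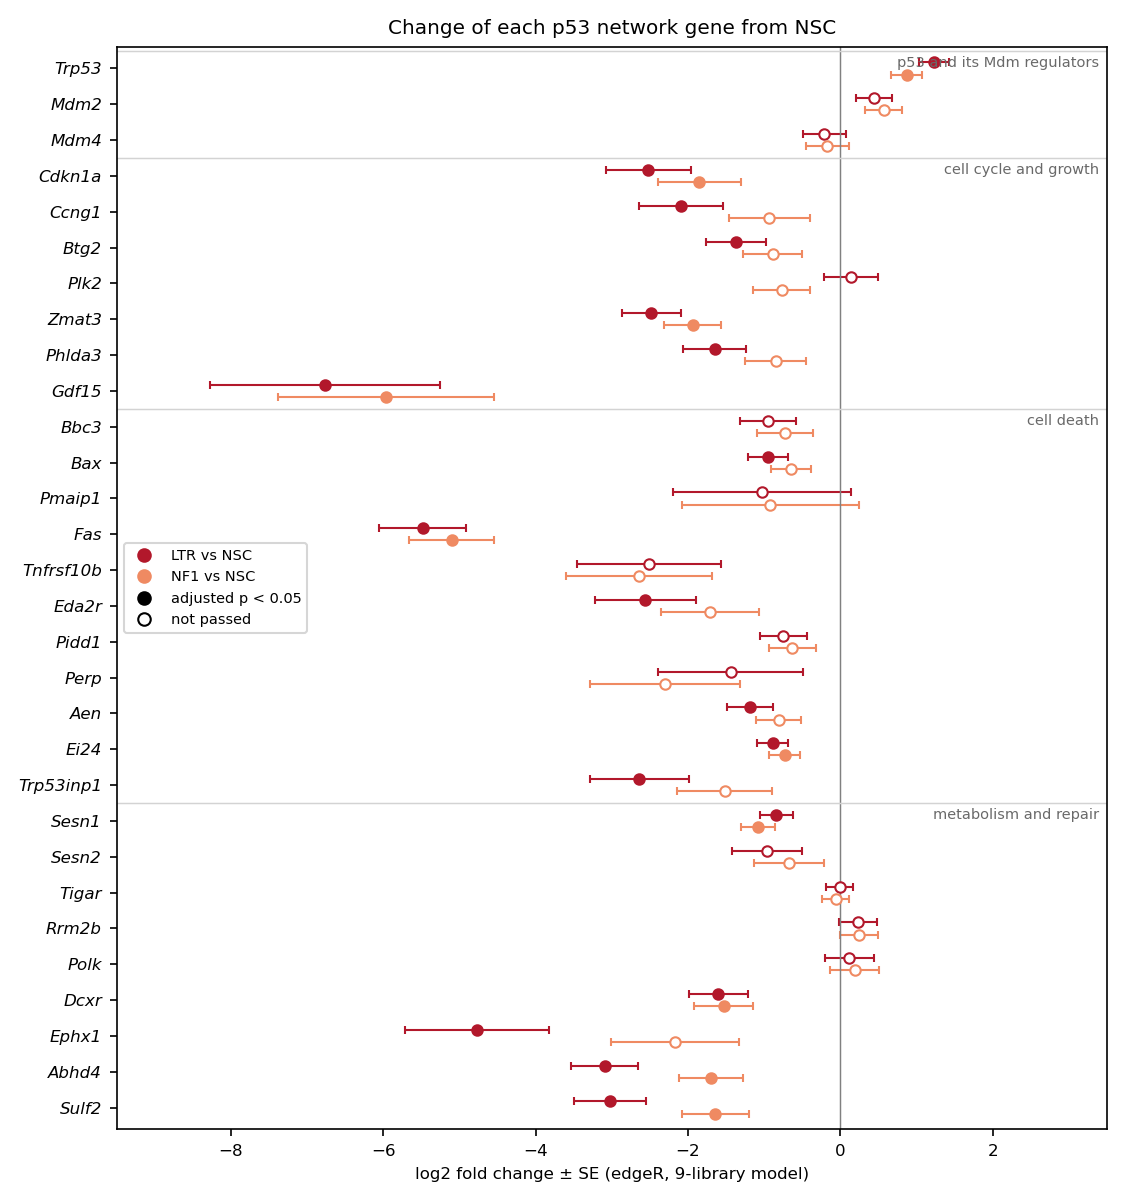
Log2 fold change from NSC for each of the 30 genes, LTR above NF1 within each row, with SE bars from the edgeR model of 9 libraries; filled points passed at an adjusted p under 0.05, and rows are grouped by role. In LTR 17 filled points lie below 0 and 1, Trp53, above it, and in the NF1 comparison 9 lie below and 1 above.

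Of the 9 metabolism and repair genes, 5 fell in LTR and 4 in the libraries labelled NF1, with medians of -0.96 and -1.08. Ephx1 (ENSMUSG00000038776, chromosome 1, 180976210 to 181020904), the microsomal epoxide hydrolase, measured 17.4, 9.12 and 11.3 CPM in LTR and 21.7, 193 and 13.6 CPM in NF1 1, 2 and 3, against 327, 366 and 339 CPM in NSC 1, 3 and 5. NF1 2 lay between NSC and the other 5 tumour libraries. Ephx1 was 27.3-fold lower in LTR (-4.77 ± 0.95, adjusted p = 0.00609), a call that held in the 18 of 19 alternatives that gave an adjusted p, DESeq2 giving none. In the libraries labelled NF1 it did not pass by edgeR (-2.17 ± 0.84, adjusted p = 0.0901), while it did by limma-voom (0.0134) and with no filter (0.0378). With NF1 2 left out the value was -4.27 (adjusted p = 6.93e-05, range 6.93e-05 to 0.209).

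Abhd4, a lipase of N-acyl phospholipids, measured 33.7, 24.4 and 29.9 CPM in LTR and 55.1, 138 and 37.9 CPM in NF1 1, 2 and 3, against 249.6, 271.6 and 229.3 CPM in NSC. Sulf2, an extracellular enzyme that removes sulfate from heparan sulfate, measured 45.6, 25.1 and 36.8 CPM in LTR and 73.9, 165 and 42.2 CPM in NF1 1, 2 and 3, against 264, 335 and 275 CPM in NSC. For both genes all 6 tumour libraries lay below NSC, with NF1 2 the highest of them. Abhd4 fell in LTR (log2 fold change -3.09 ± 0.44, adjusted p = 0.0017) and in NF1 (-1.70 ± 0.42, adjusted p = 0.0191; lost without NSC 1, 0.0536, or NF1 1, 0.073, range 0.000158 to 0.073). Sulf2 likewise fell in LTR (-3.02 ± 0.47, adjusted p = 0.00228) and in NF1 (-1.64 ± 0.44, adjusted p = 0.0283; lost without NSC 1, 0.0642, NSC 3, 0.0571, NSC 5, 0.0658, or NF1 1, 0.0998, in the fit of 6 libraries, 0.0539, or with the replicate block, 0.0744, range 0.000808 to 0.0998). Both LTR calls held in every alternative run.

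Dcxr, a reductase of dicarbonyls and L-xylulose, measured 8.78, 13.7 and 7.05 CPM in LTR and 6.49, 16.6 and 7.99 CPM in NF1 1, 2 and 3, against 27.5, 32.1 and 29.9 CPM in NSC. It fell in LTR (-1.60 ± 0.39, adjusted p = 0.0134; lost without LTR 3, 0.0574, range 0.000498 to 0.0574) and in NF1 (-1.53 ± 0.39, adjusted p = 0.0225; lost without NSC 1, 0.0579, NSC 5, 0.0632, NF1 1, 0.076, or NF1 3, 0.0563, range 0.000831 to 0.076). Sesn1, a sestrin that restrains mTORC1, measured 18.1, 12.4 and 14.8 CPM in LTR and 12.6, 12.9 and 12.7 CPM in NF1 1, 2 and 3, against 28.6, 24.3 and 28.1 CPM in NSC. For Sesn1 the libraries labelled NF1 lay close together, and NF1 2 did not stand apart. It fell in LTR (-0.84 ± 0.22, adjusted p = 0.0164) and in NF1 (-1.08 ± 0.22, adjusted p = 0.00871). The LTR call on Sesn1 was lost without NSC 1 (0.0672), NSC 5 (0.0607), LTR 2 (0.0769) or LTR 3 (0.0897; range 0.000245 to 0.115). With the replicate number as a block neither call on Sesn1 held (adjusted p = 0.115 for LTR and 0.0816 for NF1, range for NF1 7.65e-07 to 0.0816). Its relative Sesn2 measured 89.5, 33.4 and 33.4 CPM in LTR and 44.2, 105 and 42.6 CPM in NF1 1, 2 and 3, against 94.0, 117 and 93.6 CPM in NSC, and did not pass (LTR -0.96 ± 0.46, adjusted p = 0.127; NF1 -0.67 ± 0.46, adjusted p = 0.309). The Sesn2 difference passed in LTR without LTR 1 (adjusted p = 0.0275, range 0.0275 to 0.368) and in NF1 without NF1 2 (adjusted p = 0.0403, range 0.0403 to 0.582).

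The remaining 3 genes showed no difference past the threshold. Tigar, a fructose bisphosphatase, averaged 31.0 ± 3.84 CPM in LTR and 30.1 ± 3.41 CPM in the libraries labelled NF1, against 31.3 ± 0.952 CPM in NSC. Its log2 fold changes were -0.01 ± 0.18 and -0.06 ± 0.18, and in LTR the sign changed with the scaling (0.01 with DESeq2 size factors). Rrm2b, a ribonucleotide reductase subunit, gave 0.23 ± 0.25 in LTR (adjusted p = 0.491) and 0.24 ± 0.25 in NF1 (adjusted p = 0.492), and passed in LTR without LTR 2 (0.59, adjusted p = 0.0485, range 0.0485 to 0.853). Polk, a translesion DNA polymerase, gave 0.12 ± 0.32 and 0.19 ± 0.32 (adjusted p = 0.79 and 0.704).

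Per kilobase of merged exon, the members' order of abundance differed between the groups. In LTR the highest mean levels were those of Bax (72.4 CPM per kilobase), Trp53 (62.5), Ccng1 (41.1) and Mdm2 (33.0). In the libraries labelled NF1 they were those of Ccng1 (91.4), Bax (89.1), Trp53 (48.6) and Ephx1 (39.1). In NSC they were those of Ephx1 (176), Ccng1 (174), Bax (140) and Cdkn1a (101), with Trp53 at 26.6 CPM per kilobase. These are descriptions of means over 3 libraries and were not tested, and the NF1 means of Ccng1 and Ephx1 rest on NF1 2.

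The tumour libraries were alike in the size of the shift, with NF1 2 as the exception. The median member lay 1.51, 1.26 and 1.52 log2 units below the NSC mean in LTR 1, 2 and 3 and 1.57, 0.37 and 1.55 units below it in NF1 1, 2 and 3. For all genes that median lay between -0.10 and 0.02 in the 6 tumour libraries. NF1 2 was the highest library of its group for 25 of the 30 members, against 48.4% of all genes. On the log2 scale it was nearer to the NSC mean than to the mean of NF1 1 and NF1 3 for 22 of 30 members, against 56.4% of all genes. The 8 members for which it was not nearer to NSC were Fas, Gdf15, Sesn1, Ei24, Bax, Perp, Mdm2 and Rrm2b. Of these, Sesn1, Ei24 and Bax lay 0.03, 0.02 and 0.13 log2 units above the mean of NF1 1 and NF1 3, while Fas lay 1.41 above it. Gdf15, at 11 counts in NF1 2 and 0 in NF1 1 and NF1 3, was about midway on this scale, 3.75 above that mean and -3.87 from the NSC mean. Trp53 was the member with the opposite order among those called, as NF1 2 was the lowest of its group there.

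Without NF1 2, 20 members fell and 1 rose in the NF1 comparison, while 24.5% and 17.7% of all genes did. The 11 members gained were Ccng1, Btg2, Phlda3 and Plk2 of the cell cycle and growth genes, Trp53inp1, Eda2r, Aen, Tnfrsf10b and Pmaip1 of the cell death genes, and Sesn2 and Ephx1. No call was lost. Of these 11, Trp53inp1, Eda2r, Aen and Tnfrsf10b also passed by DESeq2 and limma-voom with NF1 2 in the fit, and Ephx1 by limma-voom. In the LTR comparison, which shares the estimate of spread, 19 members then fell, against 26.7% of all genes. Several of the 12 neural stem cell markers moved with NF1 2. Fabp7 measured 5.0, 343 and 1.74 CPM in NF1 1, 2 and 3, against 2364 to 4295 CPM in NSC. Nes measured 675, 2433 and 426 CPM, against 1378 to 1571 CPM, and Olig2 131, 319 and 51.5 CPM, against 704 to 902 CPM. Hes5 was at 4.80 CPM in NF1 2 and at 0.029 and 0 CPM in NF1 1 and NF1 3, against 6.38 to 7.53 CPM in NSC, whereas Egfr, at 5.31 CPM in NF1 2, was far below its 174 to 210.4 CPM in NSC. Markers of other cell types in NF1 2 were measured as well. Its 8 endothelial markers summed to 163 CPM (24.5 to 163 CPM over the NF1 group, 29.4 to 39 CPM in LTR and 6.54 to 8.36 CPM in NSC). Of that sum Flt1 gave 155 CPM and Kdr 4.61 CPM (0.319 and 0.137 CPM in NF1 1 and NF1 3), and Tek gave 0.768 CPM (0.203 and 0 CPM), while Cldn5 and Tie1 were at 0 and Pecam1 at 0.256 CPM. The 8 microglia and myeloid markers summed to 24.1 CPM (7.07 to 24.1 CPM over the NF1 group, 3.71 to 8.01 CPM in LTR and 2.99 to 5.2 CPM in NSC), of which Cd68 gave 22.1 CPM, with Cx3cr1 and Tyrobp at 0. The 8 mural cell and fibroblast markers summed to 50.3 CPM in NF1 2 (11.8 to 50.3 CPM over the group, 20.6 to 157 CPM in LTR and 68.1 to 1070 CPM in NSC), with Lum at 0. Rgs5, a pericyte marker, gave 38.4 CPM of that sum, from 1199 counts, against 0.261 and 0.239 CPM in NF1 1 and NF1 3 and 0.217 to 0.51 CPM in NSC. The 8 neuronal markers summed to 79.4 CPM in NF1 2 (39.9 to 79.4 CPM over the group, 39.3 to 93.3 CPM in LTR and 327 to 481 CPM in NSC), with Rbfox3 at 0 and Map2 at 18.5 CPM (0.782 and 1.06 CPM in NF1 1 and NF1 3, 179 to 261 CPM in NSC). The part of these markers in the values of NF1 2 was not tested.

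**Figure D3:**
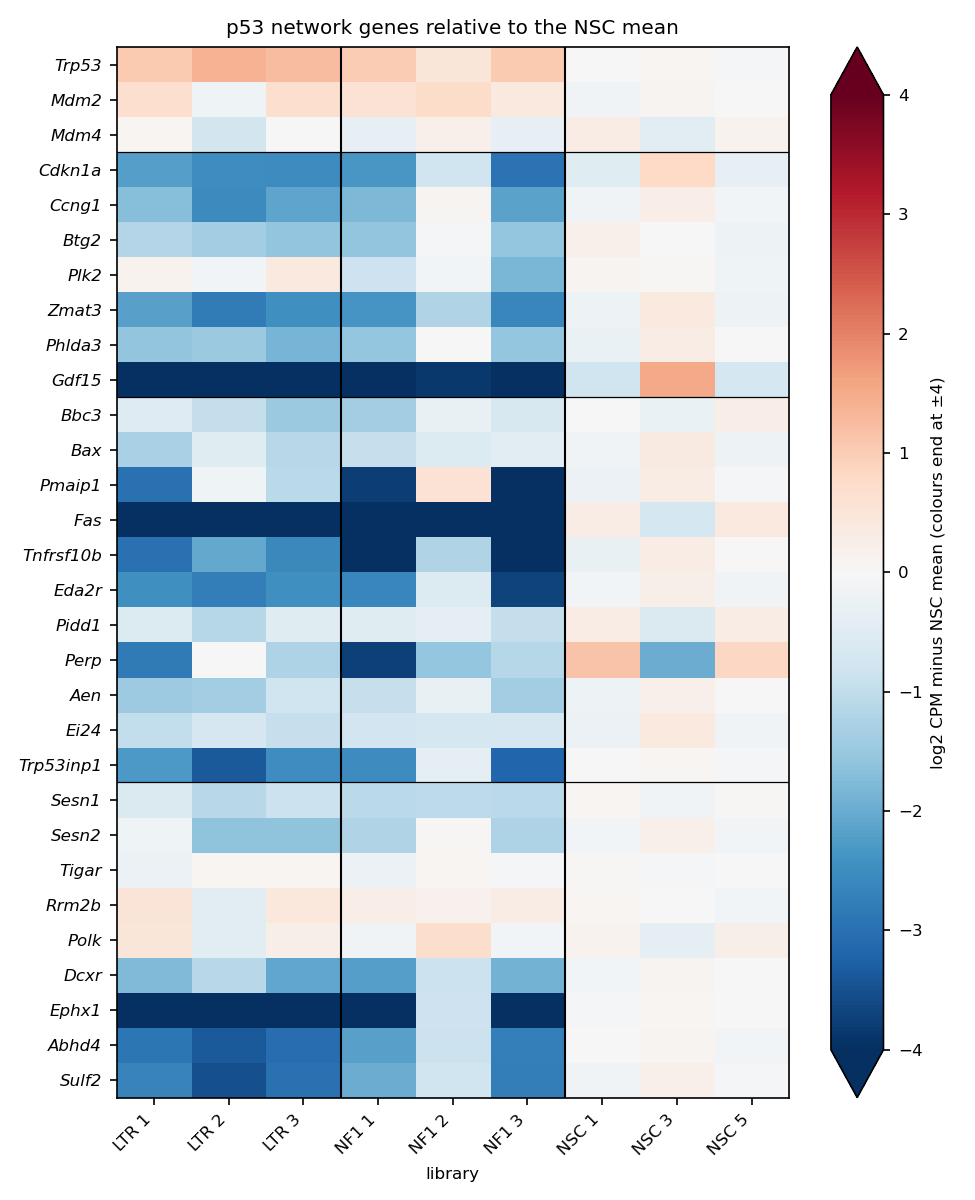
Log2 CPM of each member minus its NSC mean, in the 9 libraries (LTR, NF1, then NSC), with colours ending at ±4 and lines between groups and roles. The columns of LTR 1, 2 and 3 and of NF1 1 and 3 are mostly blue with a red Trp53 row, and the NF1 2 column is paler, with its median member 0.37 below the NSC mean.

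**Figure D4:**
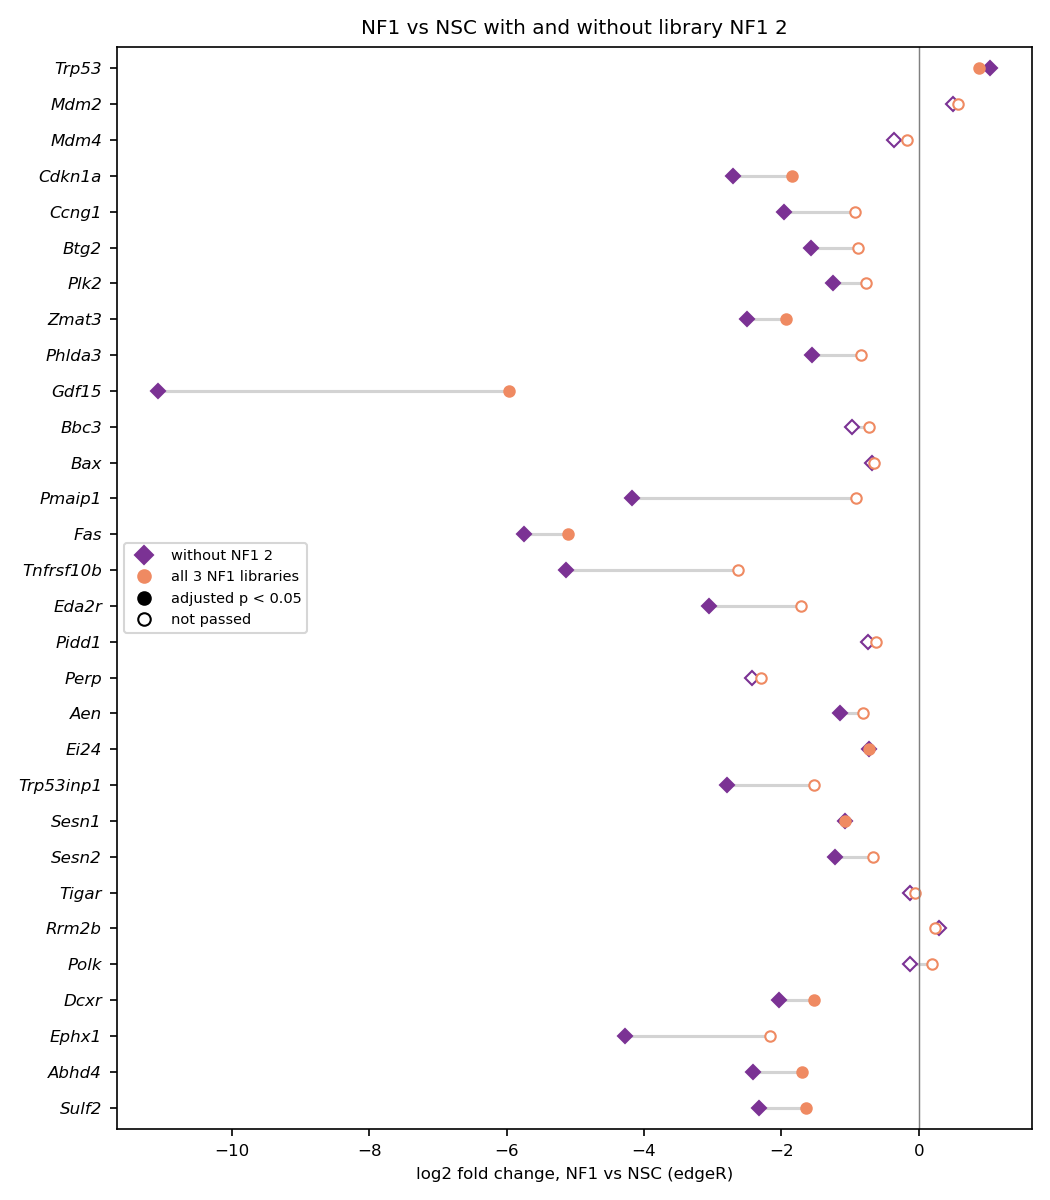
Log2 fold change of each member between NF1 and NSC without the library NF1 2 (diamonds) and with all 3 NF1 libraries (circles), filled where the adjusted p was under 0.05. Without NF1 2, 20 members are filled below 0, against 9 with all 3 libraries, and Trp53 is filled above 0 in both.

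The NSC libraries also differed in these genes. NSC 3 was the highest NSC library for 19 of the 30 members, against 43.3% of all genes, among them Cdkn1a, Gdf15, Zmat3, Bax and Ei24. It was the lowest for 8 members, against 44.2%, Fas and Perp included. Without NSC 3, 16 members fell in LTR (17.7% of all genes) and 6 in the libraries labelled NF1 (11.6%). With both NSC 3 and NF1 2 left out, 20 members fell in each comparison (26.8% of all genes in LTR and 25.4% in NF1).

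No member differed between the 2 tumour lines past the threshold. In the test of NF1 against LTR, which is also the test of a difference between their changes from NSC, 0 of 30 members and 0% of 15696 genes passed by edgeR. At an unadjusted p under 0.05 there were 1596 genes (10.2%) and 4 members, Sulf2, Plk2, Ephx1 and Abhd4. DESeq2 called 330 genes and limma-voom 1 gene, neither a member. The median log2 difference over the members was 0.26, against 0.06 over all genes, and turned to -0.16 without NF1 2. The 8 members called in LTR alone (Bax, Ccng1, Btg2, Trp53inp1, Aen, Eda2r, Ephx1 and Phlda3) are therefore not shown to differ between the lines. Abhd4 was the only member with all 3 libraries labelled NF1 above all LTR libraries (1.39 ± 0.41, adjusted p = 0.353), a pattern of 7.21% of all genes. Trp53 was the only member with all of them below (-0.37 ± 0.19, adjusted p = 0.567), a pattern of 5.24%. Without NF1 2 Tnfrsf10b passed, lower in NF1 than in LTR (-2.63), as did 0.165% of all genes.

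Genes around p53 were then counted in 4 further lists. Their counts stand beside the shares of all genes given above, 14.9% that rose and 20.9% that fell in LTR, and 10.1% and 13.1% in NF1. Of 24 regulators and partners 21 were tested. In LTR 7 rose and 3 fell, and in the libraries labelled NF1 5 rose and 1 fell, with medians of 0.34 and 0.25. Cdkn2a, whose Arf product holds Mdm2 away from p53, measured 609 ± 296 CPM in LTR and 272 ± 106 CPM in NF1, against 56.3 ± 3.26 CPM in NSC (LTR 3.44 ± 0.40, adjusted p = 0.000984; NF1 2.28 ± 0.38, adjusted p = 0.00447). Its 2 products cannot be told apart in counts per gene. Ppp1r13b, the p53-binding protein ASPP1, rose in LTR (2.0 ± 0.28, adjusted p = 0.00162) and in NF1 (2.15 ± 0.28, adjusted p = 0.00181). Sirt1, a deacetylase of p53, rose by 1.98 ± 0.34 (adjusted p = 0.00362) and 1.60 ± 0.34 (adjusted p = 0.0111). Crebbp, an acetyltransferase and coactivator of p53, fell by 1.70 ± 0.25 (adjusted p = 0.00198) and 1.56 ± 0.25 (adjusted p = 0.00383). Calls on these 4 genes held with each library left out in turn. The most abundant that did not pass was Rpl11, a ribosomal protein that binds Mdm2 (LTR 0.82, adjusted p = 0.12; NF1 0.49, adjusted p = 0.369). Of the whole list, 4 genes rose in LTR without NSC 1, and 3 in NF1 without NSC 1, NSC 5, LTR 1 or NF1 1.

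Of 17 DNA damage kinases and mediators, 2 rose in LTR, Mre11a (0.85 ± 0.26, adjusted p = 0.0287) and Brca1 (0.82 ± 0.25, adjusted p = 0.0319), both of the repair of double-strand breaks, where 14.9% of all genes rose. In the libraries labelled NF1, 0 passed by edgeR, with 1 lower at an unadjusted p under 0.05, and 0 passed by DESeq2 or limma-voom. These counts were not stable: in LTR 0 passed without NSC 1, NSC 3, NSC 5 or LTR 3, 1 without LTR 1 or LTR 2, and 5 rose without NF1 2 (20% of all genes), while in NF1 3 rose without NF1 2 (17.7% of all genes) and 1 fell without NF1 1. The most abundant gene that did not pass was Topbp1, an activator of the kinase Atr (LTR 0.69, adjusted p = 0.107; NF1 0.42, adjusted p = 0.348).

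Among 30 further p53 targets, 10 fell and 3 rose in LTR, and 8 fell and 3 rose in the libraries labelled NF1, with medians of -0.59 and -0.45. Tap1, a transporter of antigen peptides, fell by 2.70 ± 0.42 in LTR (adjusted p = 0.0024) and 2.67 ± 0.42 in NF1 (adjusted p = 0.00353). Ak1, an adenylate kinase, fell by 2.14 ± 0.31 in LTR (adjusted p = 0.0018) and Pltp, a phospholipid transfer protein, by 2.18 ± 0.40 (adjusted p = 0.00441). Ak1 and Pltp also fell in NF1 (adjusted p = 0.0151 and 0.0342). Thbs1, a matrix glycoprotein, averaged 11.9 ± 3.21 CPM in NF1, against 855 ± 770 CPM in NSC (-6.16 ± 1.08, adjusted p = 0.00531). Thbs1 also fell in LTR (adjusted p = 0.0175). In the opposite direction, Steap3, a metalloreductase, rose by 1.58 ± 0.22 in LTR (adjusted p = 0.0016) and 2.38 ± 0.22 in NF1 (adjusted p = 0.000586). Gadd45a, a stress sensor, rose by 2.10 ± 0.42 in NF1 (adjusted p = 0.00849) and also rose in LTR (adjusted p = 0.0226). The NF1 calls on Ak1 and Pltp and the LTR calls on Thbs1 and Gadd45a were each lost with some single library left out. The most abundant that did not pass was Gpx1, a glutathione peroxidase (LTR 0.49, adjusted p = 0.154; NF1 0.41, adjusted p = 0.259). The count that fell was 6 in LTR without NSC 5, LTR 2 or LTR 3, and in NF1 it was 2 without NF1 1, 3 without NSC 1 or NSC 5, 5 without LTR 1 or LTR 3, and 12 without NF1 2.

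The last list held 20 cell cycle genes that p53 lowers indirectly, through p21 and the DREAM repressor complex. In LTR 5 rose, beside 14.9% of all genes, with a median of 0.77, among them Bub1 (1.57 ± 0.44, adjusted p = 0.022) and Ccnb2 (1.60, adjusted p = 0.025), of the spindle checkpoint and mitotic entry, Cenpa (1.85, adjusted p = 0.0251), the centromeric histone, and Cdk1 (1.62 ± 0.50, adjusted p = 0.032), the mitotic kinase. In the libraries labelled NF1, 0 passed by edgeR, with 5 higher at an unadjusted p under 0.05 and a median of 0.45, 3 rose by DESeq2 and 0 by limma-voom. NF1 2 measured 109 CPM of Cdk1, against 464 and 598 CPM in NF1 1 and NF1 3. Without NF1 2, 15 of the 20 rose in LTR and 13 in NF1, where 20% and 17.7% of all genes rose. The 5 calls in LTR came to 8 by DESeq2, and to 0 without NSC 1 or NSC 5, 1 without LTR 2 or LTR 3 and 2 without LTR 1. The most abundant that did not pass was Top2a, a DNA topoisomerase (LTR 0.67, adjusted p = 0.125; NF1 0.02, adjusted p = 0.963).

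**Figure D5:**
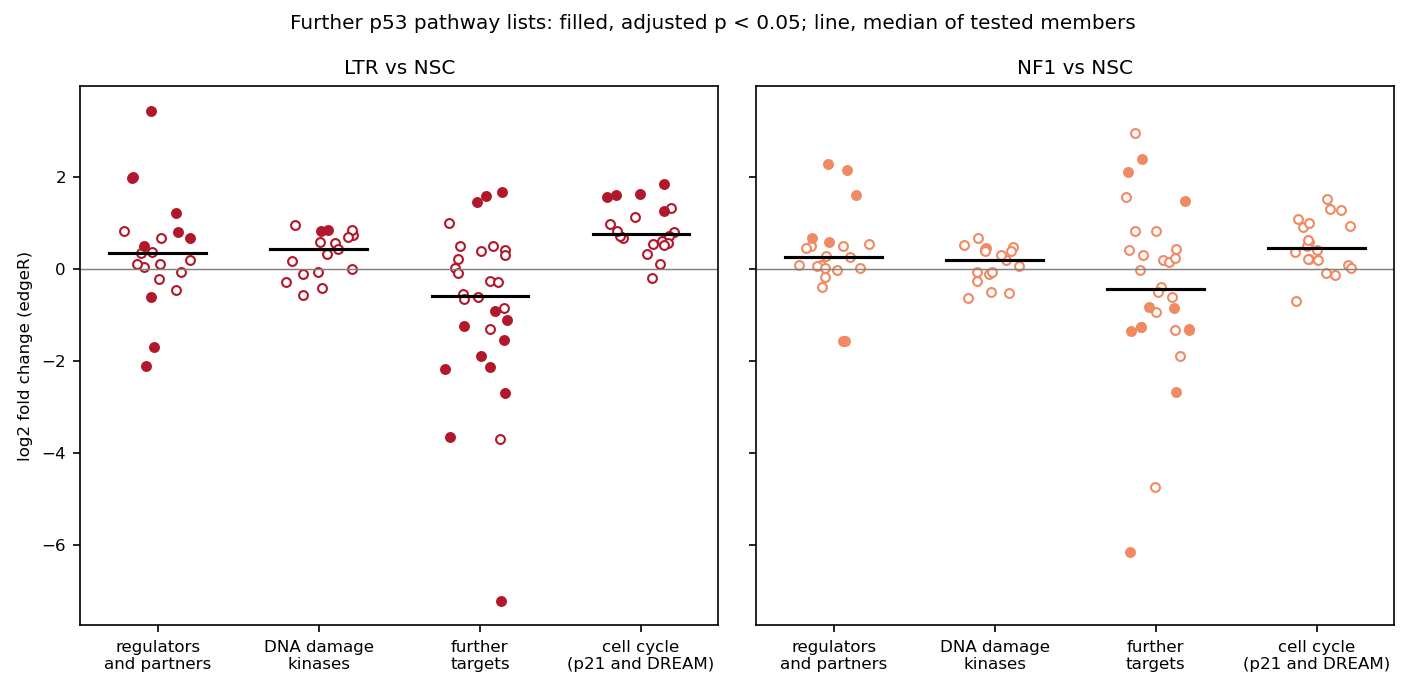
Log2 fold change from NSC of each tested gene of the 4 further lists, LTR in the left panel and NF1 in the right, filled where the adjusted p was under 0.05, with a line at each list's median. Cell cycle genes have medians of 0.77 and 0.45, and further targets of -0.59 and -0.45.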

How the data were processed

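Per the labels' protocols, RNA of 9 cultures was isolated with the RNeasy Plus Mini kit and sequenced from libraries of the NEBNext Ultra RNA kit. The authors deposited 1 table of raw read counts per gene, and all 9 of its value columns were used. Tools listed in the submitters' processing notes are HTSeq, STAR (2.5.2a) and DESeq2 (1.8.2), with the builds mm10 and GRCm38, and no role is given for any. The sources used here do not give the annotation release, nor how reads were assigned to genes and whether by strand, so counts of overlapping genes are uncertain. Exons of 7 members share bases with another gene (Bax, Cdkn1a, Ei24, Ephx1, Rrm2b, Sulf2 and Tigar), 5 of them on the opposite strand.

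The counts were modelled with edgeR 4.0.16 in R 4.3.3. A single fit of the 3 groups used 9 libraries, TMM scaling and the filterByExpr filter at a minimum count of 10, and tested 15696 genes. The 3 contrasts between groups were tested with quasi-likelihood F statistics, and p-values were adjusted over all genes tested by the Benjamini-Hochberg method, with 0.05 as the threshold. SE were derived from the F statistic, CPM are TMM-scaled, and the fit was tested on simulated data. There were 19 alternatives: DESeq2 1.42.0, limma-voom (limma 3.58.1), library totals, upper quartile or DESeq2 size factors in place of TMM, no filter, 10 CPM in 3 libraries, fits of 6 libraries, the replicate number as a block, the omission of every single library, and that of NF1 2 with NSC 3.

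Gene positions and merged exon lengths came from GENCODE M21 (GRCm38), and promoter windows from RefSeq (GRCm38.p6). Cop1 is listed in the table under its older symbol Rfwd2, and Trp53rk was matched to no row. The members, gene lists and tests were chosen with earlier results of these data known. By rule, Trp53 was described first, then every member by role, with every library's value for those called or above 50 CPM. Of each further list, up to 4 genes with the smallest adjusted p per comparison and the most abundant gene that did not pass were named, with Nf1 and Cdk4 as checks of the labels. Other genes named, such as single marker genes, were chosen after their values were seen.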

Additional observations from a re-analysis of the deposited data

How the results depend on the processing

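Over the alternatives that keep every library of the groups compared, 16 to 19 members fell in LTR against NSC, and 1 rose in each, and 20 fell with NF1 2 and NSC 3 both left out. Leaving out 1 library at a time gave 9 to 19 that fell and 1 to 3 that rose. In NF1 against NSC, 14 fell by DESeq2, 14 by limma-voom, 6 in the fit of the 6 libraries compared and 20 with NF1 2 and NSC 3 both left out. With 1 library left out 3 to 20 fell. With 10 CPM in 3 libraries 8 fell, as Gdf15 was not tested there and no call was lost. The rise of Trp53 in NF1 against NSC became 2 rising members in the fit of the 6 libraries compared. It became 0 with the replicate block, and 0 to 2 with 1 library left out. The share of all genes that fell moved too: in NF1 from 13.1% to 11.6% without NSC 3, 24.5% without NF1 2 and 25.4% without both. In LTR it went from 20.9% to 17.7%, 26.7% and 26.8% in that order. Shares in the other settings are not given here, so their member counts cannot be set beside all genes. In NF1 against LTR, 0 rose with each library left out, 0 to 1 fell, and 1 fell with NF1 2 and NSC 3 both left out. The causes were not tested.

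With the replicate number as a block, 16 members fell in LTR against NSC and 6 in NF1 against NSC. Same-numbered libraries hardly deviated together: the correlation of their deviations from the group means was 0.115, -0.0144 and -0.174 for LTR with NF1, 0.0881 and -0.0558 for NSC with LTR, and -0.0757 and 0.0375 for NSC with NF1. LTR 1 with NF1 1 (0.115) and NSC 1 with LTR 1 (0.0881) were each other's best match between their groups, and no other same-numbered pair was. As the correlations were small, the numbers were taken as names only in the main fit, which does not exclude a pairing.

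No called difference of a member from NSC changed sign. Among those not called, Plk2 in LTR was -0.05 with the block. Tigar in LTR was 0.01 by DESeq2 and its size factors, 0.02 by upper quartile scaling, in the 6-library fit and with both libraries left out, and -0.02 to 0.10 with 1 library left out. Tigar in NF1 was 0.03 in the 6-library fit, and -0.13 to 0.03 with 1 left out. Polk in NF1 was -0.25 with both left out and -0.13 to 0.34 with 1 left out, Polk in LTR -0.07 to 0.46 and Mdm4 in LTR -0.34 to 0.12. In NF1 against LTR, where no member was called, both libraries left out gave Mdm4 -0.16, Cdkn1a -0.21, Bbc3 -0.05, Pmaip1 -3.14, Fas -0.27, Trp53inp1 -0.17, Sesn2 -0.27, Zmat3 -0.04, Eda2r -0.52, Btg2 -0.21, Polk -0.27, Pidd1 -0.01, Gdf15 -4.21 and Dcxr -0.44. By limma-voom Pmaip1 was -1.15 and Gdf15 -0.37, and with the block -1.13 and -0.08. Rrm2b was -0.01 by DESeq2 and its size factors, -0.02 by upper quartile scaling and -0.03 by library totals, where Mdm4 was 0. With 1 library left out the same comparison ran from -0.13 to 0.25 for Mdm2, -0.21 to 0.18 for Mdm4, -0.20 to 0.93 for Cdkn1a, -0.04 to 0.49 for Bbc3, -3.14 to 0.74 for Pmaip1, -0.27 to 0.65 for Fas, -0.16 to 1.45 for Trp53inp1, -0.26 to 0.93 for Sesn2, -0.03 to 0.72 for Zmat3, -0.51 to 1.21 for Eda2r, -2.63 to 0.34 for Tnfrsf10b, -0.21 to 0.74 for Btg2, -1.43 to 0.02 for Perp, -0.26 to 0.26 for Polk, -0.15 to 0.03 for Tigar, -0.25 to 0.18 for Rrm2b, -0.09 to 0.21 for Pidd1, -4.31 to 1.39 for Gdf15 and -0.44 to 0.34 for Dcxr.

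With 3 cultures a group, a gene that did not pass is not shown to be unchanged. Depth limits Gdf15, whose tumour libraries hold 0 to 11 counts, and 10 CPM in 3 libraries left 27 members to test.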
